A study of Caenorhabditis elegans with 16 samples.

Results

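These data describe which miRNAs were recovered with the gld-1 mRNA after the seed match of its miR-84 site had been disrupted, compared with the unedited transcript. The comparison holds 4 of the 16 libraries of the series, chosen by sample title: 2 from wild-type worms (strain N2), called gld-1, and 2 from worms of the N2 background whose endogenous gld-1 gene had been edited by CRISPR, called seed destruction. All 4 were pulldown elutions from young adult Caenorhabditis elegans, and the same biotinylated DNA probes against gld-1 were used in both strains. In this method, vIPR, live worms are irradiated with ultraviolet light to link RNA to its bound proteins, and the probes then retrieve the transcript with the factors attached to it. Background was measured in the no-target control (n = 3), in which gfp probes were applied to N2 worms, which carry no gfp. In values over this control, the retrieved transcript and the probe set therefore cannot be told apart. A further strain, changed specificity (n = 2), carries base changes in gld-1 outside the seed match of the same site, which turn it towards let-7. The labels describe the edit as a CRISPR allele in N2 and do not say whether 1 or several edited lines were used. Whole worms were pooled, so a miRNA bound to fewer transcripts and a miRNA bound in fewer cells cannot be told apart.

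A miRNA is carried by an Argonaute protein and finds its targets mainly through the seed, a short stretch near its 5′ end that pairs with the 3′ UTR of an mRNA. miRNAs with the same seed form a family and can, in principle, share sites, with pairing outside the seed able to favour a family member. The let-7 family (let-7, miR-48, miR-84, miR-241 and the less abundant miR-793, miR-794 and miR-795) is known in C. elegans for its role in the timing of larval development. GLD-1 is an RNA-binding protein of the germline that acts as a translational repressor and is needed for oocyte development. The gld-1 gene lies on chromosome I of the WBcel235 assembly from 7695681 to 7698222 on the plus strand, and the edited site is in its 3′ UTR. The mir-84 precursor is annotated on chromosome X from 16022404 to 16022478 on the minus strand.

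The gld-1 libraries held 181172 and 408243 miRNA reads and the seed destruction libraries 123202 and 102682, within a range of 12474 to 2081849 over the series. With 3 reads as the floor, the smallest visible share was 0.00166% and 7.35e-04% in gld-1 and 0.00244% and 0.00292% in seed destruction. Of 434 listed mature miRNAs, 259 had a read in any library and 112 had at least 10 reads in at least 2 libraries and were tested. Of the tested miRNAs, 104 had a read in all 4 libraries and 68 had at least 10 reads in each. Replicates were distinct libraries, since counts differed by far more than sampling noise (chi-square per degree of freedom 268 for gld-1 and 68.4 for seed destruction). Shares are given as percent of all miRNA reads of a library with 95% Wilson intervals, and intervals and floors cover counting error only. Library names carry a prefix of unstated meaning (PD3 for replicate 1 of both groups, PD1 for gld-1 replicate 2, none for seed destruction replicate 2), so a difference within the shared prefix is given for the main results as a single pair with no test. How much gld-1 mRNA each pulldown retrieved and how abundant each miRNA was in the worms were not analysed here.

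The loss of miR-84-5p was the main difference between the edited and the unedited transcript, while the other miRNAs of the let-7 family did not pass the test. With the seed match in place miR-84-5p was the most abundant miRNA of both gld-1 libraries, and with the seed match disrupted it fell to rank 38 by mean share. At an adjusted p-value under 0.05 (edgeR quasi-likelihood test over all 112 miRNAs, which is 1.79% called), miR-84-5p and miR-77-5p were lower in seed destruction and 0 miRNAs were higher. With DESeq2 there were also 0 higher and 2 lower, and at an unadjusted p-value under 0.05 in edgeR there were 2 higher (1.79%) and 4 lower (3.57%). The median log2 fold change of all tested miRNAs was -0.15, with quartiles of -0.57 and 0.34.

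In the gld-1 libraries miR-84-5p had 67538 reads (37.3% of the library, interval 37.1 to 37.5) and 175840 reads (43.1%, 42.9 to 43.2). In seed destruction it had 150 reads (0.122%, 0.104 to 0.143) and 182 reads (0.177%, 0.153 to 0.205). The 3 control libraries held 555, 130 and 198 reads of it, which is 0.751%, 0.305% and 1.59%. Both seed destruction libraries thus lay below every control library, and both gld-1 libraries lay far above. The mean share was 40.2% ± 4.10 in gld-1 and 0.149% ± 0.0392 in seed destruction (SD, n = 2 each).

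After scaling between libraries, miR-84-5p fell by 9.89 on the log2 scale in seed destruction relative to gld-1 (SE 0.93, 95% interval -11.79 to -7.98, edgeR adjusted p-value 6.77e-09), which is a 946-fold lower abundance with an interval of 252 to 3550. The pair with the same prefix differed by -9.35. All 17 alternative settings kept it past the threshold, with values from -10.36 to -8.07. Relative to the no-target libraries, gld-1 exceeded the background of miR-84-5p by 8.07 and seed destruction lay below it by 1.82 (SE 0.62, edgeR adjusted p-value 0.0424). The call below the control held in only 6 of 18 alternatives, with values from -2.57 to -1.22 and adjusted p-values up to 0.295. It was lost without control replicate 1 (-1.83, adjusted p-value 0.0702), without control replicate 3 (-1.23, 0.143), without seed destruction replicate 1 (-1.66, 0.295) and without seed destruction replicate 2 (-1.997, 0.124). The passenger arm, miR-84-3p, had 3 and 0 reads in gld-1 and 0 and 3 reads in seed destruction, at or under the floor in all 4 libraries.

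**Figure D1:**
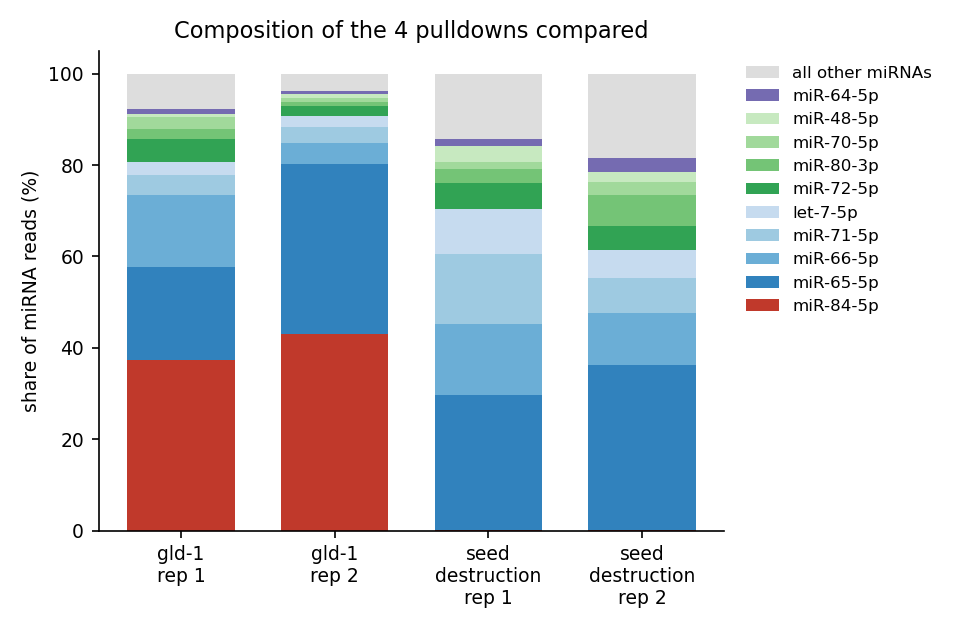
Stacked share of miRNA reads (percent, vertical axis) in each of the 4 pulldowns compared, for the 10 miRNAs with the largest mean share and all other miRNAs together. miR-84-5p fills 37.3% and 43.1% of the gld-1 bars and cannot be seen in the seed destruction bars, where miR-65-5p takes 29.5% and 36.1%.

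The same loss was seen without any scaling. In let-7-5p relative to miR-84-5p, the log2 ratio of reads (with 1 added to each) was -3.70 and -4.12 in gld-1 and 6.30 and 5.11 in seed destruction. The ratio therefore changed sign, from a mean of -3.91 ± 0.295 to 5.71 ± 0.842 (SD, n = 2 each), a difference of 9.62. The two-sided p from an exact permutation of the 4 libraries was 0.333, which 2 libraries against 2 cannot go below, and 17 ratios were computed in this way. Each of the 103 other miRNAs with reads in all 4 libraries had a higher ratio to miR-84-5p in both seed destruction libraries than in both gld-1 libraries. The shift ranged from 6.91 for miR-77-5p to 11.56 for miR-57-5p, with a median of 9.58. All these ratios share the miR-84-5p reads, so they restate 1 change and are not separate evidence of it.

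A regression of log2 reads, the kind of enrichment measure the study used, placed miR-84-5p last as well. When each seed destruction library was regressed on the mean of gld-1, its residual was -8.45 and -8.00, where the SD of all residuals was 1.37 and 1.30. The next lowest residuals were -3.27 for miR-8191-5p in replicate 1 and -3.22 for miR-39-5p in replicate 2. The miRNA next to miR-84-5p thus differed between the libraries, while miR-84-5p was lowest in both. No p-value belongs to these residuals.

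The remaining let-7 family members share the seed whose match was edited, and they were recovered with both transcripts. let-7-5p, the founding member, had 5178 and 10099 reads in gld-1 and 11911 and 6322 in seed destruction, so that the counts of the groups overlapped. miR-48-5p, which acts in larval timing together with miR-84 and miR-241, had 1358 and 3144 reads in gld-1 and 4324 and 2159 in seed destruction. miR-241-5p had 490 and 618 reads in gld-1 and 947 and 608 in seed destruction. None of these 3 had the steep loss of miR-84-5p in either edited library. Over the control in gld-1, however, they stood at 1.55 (let-7-5p), 0.92 (miR-48-5p, edgeR adjusted p-value 0.231) and -0.10 (miR-241-5p, 0.902), beside 8.07 for miR-84-5p. A fall to the control level would thus have been far smaller for these 3 than for miR-84-5p. The mir-48 and mir-241 precursors lie 1678 bases apart on chromosome V.

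As shares, these members were larger in seed destruction. let-7-5p went from 2.67% ± 0.272 to 7.91% ± 2.48, miR-48-5p from 0.760% ± 0.0145 to 2.81% ± 0.995 and miR-241-5p from 0.211% ± 0.0842 to 0.680% ± 0.125 (SD, n = 2 each, no test). With miR-84-5p left out of the totals, the let-7-5p share was 4.45% ± 0.149 in gld-1 and 7.92% ± 2.48 in seed destruction. On the scaled level the log2 fold change was -0.14 for let-7-5p (SE 0.63, interval -1.43 to 1.15), 0.14 for miR-48-5p (interval -1.08 to 1.36) and 0.08 for miR-241-5p (interval -1.16 to 1.31). edgeR adjusted p-values were 0.997 for all 3. Under the main scaling, these intervals exclude a 4-fold change in either direction but not a 2-fold change. With library totals as the only scaling, let-7-5p was higher in seed destruction by 1.57 with an adjusted p-value above 0.05, so its sign depends on the scaling. Over the control let-7-5p stood at 1.55 in gld-1 (adjusted p-value 0.0488) and at 1.41 in seed destruction (adjusted p-value 0.0823). The former call held in 3 of 18 alternatives and was lost whichever of the 5 libraries was left out, with values from 1.13 to 1.88.

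miR-795-5p had 18 and 45 reads in gld-1 and 34 and 21 in seed destruction (log2 fold change -0.58). miR-793 had 5 and 6 reads in gld-1 and 4 and 8 in seed destruction (log2 fold change -0.27, interval -3.19 to 2.65), too few to exclude large changes. miR-794-5p had 1 read in all 4 libraries together and was not tested. Of the 6 tested family members, 1 was called lower and 0 higher, beside 1.79% and 0% of all tested miRNAs. Their median was -0.21 beside -0.15 over all tested miRNAs. The summed share of the family was 41.2% and 46.5% in gld-1 and 14.1% and 9.06% in seed destruction. With miR-84-5p taken out of both the sum and the totals, it was 6.20% and 5.99% in gld-1, 13.99% and 8.90% in seed destruction, and 6.73%, 7.65% and 11.4% in the controls. In seed destruction the rest of the family thus took a larger share than in gld-1 (no test), with 1 library inside the range of the controls and 1 above it.

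The proportions of miR-241-5p and miR-48-5p to let-7-5p shifted little, and those of the rarer members were not compared. The log2 ratio of miR-48-5p to let-7-5p was -1.93 and -1.68 in gld-1 and -1.46 and -1.55 in seed destruction, a shift of 0.30 with no overlap. The ratio of miR-241-5p to let-7-5p shifted by 0.20, from a mean of -3.71 ± 0.445 to -3.51 ± 0.195 (SD, n = 2 each). Both shifts are small beside the change of 9.62 between let-7-5p and miR-84-5p. The passenger arms were rare in all 4 libraries: miR-241-3p had 30 and 67 reads in gld-1 and 95 and 50 in seed destruction, and let-7-3p and miR-48-3p had at most 3 reads in a library.

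**Figure D2:**
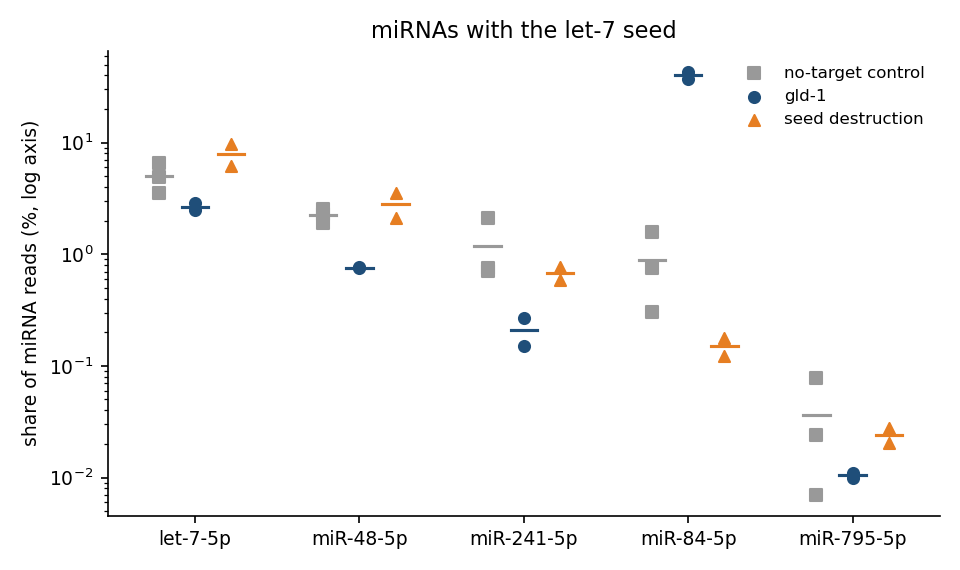
Share of miRNA reads (percent, logarithmic axis) of 5 miRNAs with the let-7 seed in the no-target control (squares, n = 3), gld-1 (circles, n = 2) and seed destruction (triangles, n = 2), with 1 point per library and a bar at each group mean. miR-84-5p drops from about 40.2% to 0.149%, below the controls, while the seed destruction points of the other 4 lie above those of gld-1.

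Compared with the changed specificity strain, seed destruction differed in let-7-5p. That strain held let-7-5p at 95.1% and 89.0% of the reads, and seed destruction held 9.67% and 6.16%. let-7-5p was lower in seed destruction by 7.31 (SE 0.83, edgeR adjusted p-value 3.10e-07). miR-84-5p was low in both edited strains, with 385 and 594 reads (0.0318% and 0.0702%) in changed specificity. The scaled difference of -2.01 did not pass the threshold (SE 0.66, edgeR adjusted p-value 0.201). By share the order was opposite, with 0.122% and 0.177% in seed destruction, so the sign depends on the scaling. miR-48-5p and miR-241-5p differed by -0.22 and -0.18, also not past the threshold.

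miR-77-5p, whose precursor lies on chromosome II from 12519268 to 12519367, was the other miRNA called lower. It had 565 and 2318 reads in gld-1 (0.312% and 0.568%) and 270 and 163 reads in seed destruction (0.219% and 0.159%). The controls held 148, 97 and 52 reads, or 0.200%, 0.228% and 0.417%. Seed destruction was thus below gld-1 in both libraries and not above the controls by share, with replicate 1 inside their range and replicate 2 below it. The log2 fold change was -3.10 (SE 0.73, interval -4.59 to -1.60, edgeR adjusted p-value 0.0138), an 8.55-fold lower abundance with an interval of 3.03 to 24.2. Over the control, the value was 3.29 for gld-1 (adjusted p-value 3.15e-04) and 0.20 for seed destruction (adjusted p-value 0.847).

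The call for miR-77-5p was less stable than that for miR-84-5p and passed the threshold in 10 of 17 alternatives. The pair with the same prefix differed by -1.61. It was lost without gld-1 replicate 2 (-1.91, edgeR adjusted p-value 0.446), without seed destruction replicate 1 (-3.47, 0.123) and without seed destruction replicate 2 (-2.80, 0.446). With library totals as the scaling the difference was -1.22 (adjusted p-value 0.251). Over its alternatives the adjusted p-value ranged from 0.00142 to 0.446. The opposite arm, miR-77-3p, which was looked at after its values were seen, had 199 and 35 reads in gld-1 and 16 and 80 in seed destruction, with overlapping groups.

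**Figure D3:**
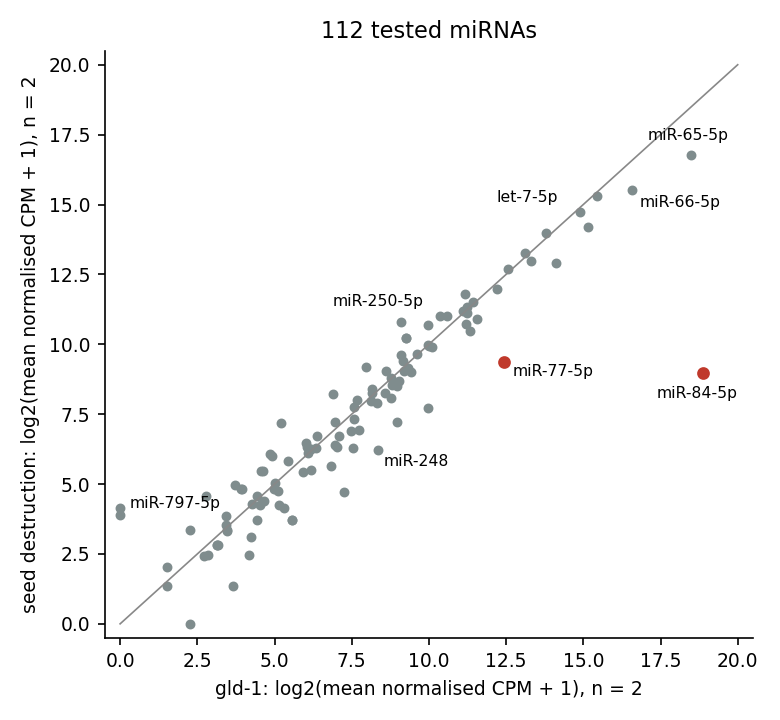
Mean normalised CPM, that is reads scaled by effective library size, in gld-1 (horizontal axis) against seed destruction (vertical axis), both as log2 of the mean of 2 libraries plus 1, for the 112 tested miRNAs. The line marks equal values, and the red points are the 2 miRNAs called by edgeR, miR-84-5p and miR-77-5p. Most other points lie along the line under this scaling, which assumes that most miRNAs are unchanged. With library totals the median log2 fold change moved up by 1.67.

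In gld-1, 17 miRNAs were called higher than in the control, which differs in its probes as well (edgeR adjusted p-value under 0.05, 22.3% of 112 called, 15.2% higher and 7.14% lower). Of these 17, 2 were called lower in seed destruction, 0 were called higher and 15 did not pass the test. Their median log2 fold change was -0.95 beside -0.15 over all tested miRNAs, with 14 below 0 and 3 above 0. These miRNAs were picked by high values in the same gld-1 libraries, which favours lower values in the comparison, so the counts are a description. Seed destruction against the control gave 13 higher (11.6%) and 7 lower (6.25%), or 17.9% called. The comparisons of gld-1 and of seed destruction with the control share the 3 control libraries, and their values are given side by side for each member. With library totals as the scaling these splits were 6 higher and 50 lower in gld-1 and 6 higher and 6 lower in seed destruction, and the median log2 fold change in seed destruction against gld-1 moved up by 1.67. With that scaling, 12 of the 17 had a value above 0 in seed destruction against gld-1, so the signs of the values that were not called depend on it.

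The miR-63 to miR-66 and miR-229 group had the largest summed share in seed destruction among the families compared. Of its 6 tested members, 3 were called higher there than in the control and 0 lower, beside 11.6% and 6.25% of all tested miRNAs. The mir-229, mir-64, mir-65 and mir-66 precursors lie in 1 cluster on chromosome III between 2172452 and 2173206. miR-65-5p became the most abundant miRNA of both seed destruction libraries. It had 36901 and 151228 reads in gld-1 (20.4% and 37.0%) and 36359 and 37090 in seed destruction (29.5% and 36.1%), while the controls held 3.59%, 7.18% and 3.14%. All 4 gld-1 and seed destruction libraries were above all controls in this share. miR-65-5p differs little in sequence from miR-64-5p, so the split of reads between these is uncertain. miR-64-5p had 1914 and 3189 reads in gld-1 and 1959 and 3303 in seed destruction, with overlapping groups (log2 fold change -0.34). The controls held 1298, 4417 and 205 reads of it. Over the control it stood at 0.08 in gld-1 and -0.26 in seed destruction. For miR-229-5p these values were -1.83 and -1.74 and for miR-229-3p 0.75 and 0.29, and none of them was called.

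The level of miR-65-5p exceeded the control by 5.23 with unedited gld-1 and by 3.51 with the edited transcript, and both calls held in all 18 alternatives. The difference between the gld-1 strains, -1.71 (SE 0.64, edgeR unadjusted p-value 0.0131), did not pass after adjustment (adjusted p-value 0.366). The pair with the same prefix differed by -0.57. Its sign turned with library totals as the scaling, with a value of 0.19. gld-1 replicate 2 alone held the large count of miR-65-5p, and it also had the most reads of the compared libraries. The share of miR-65-5p there was 37.0%, beside 20.4% in gld-1 replicate 1 and 29.5% and 36.1% in seed destruction.

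miR-66-5p had 28620 and 19046 reads in gld-1 and 19259 and 11647 in seed destruction, against 1151, 545 and 370 in the controls. Its excess over the control was 4.63 in gld-1 and 3.56 in seed destruction, and these calls too held in all 18 alternatives. The difference between the strains was -1.07 (interval -2.29 to 0.15, edgeR adjusted p-value 0.742). miR-63-3p, from a locus on chromosome X, had 587 and 592 reads in gld-1 and 1171 and 542 in seed destruction (log2 fold change 0.11, interval -1.06 to 1.28). Over the control it gained 2.25 in gld-1 and 2.36 in seed destruction. Of the 6 tested members of the group, 0 were called between the strains by edgeR (median -0.40), beside 1.79% of all tested miRNAs. The summed share was 37.7% and 42.7% in gld-1, 47.9% and 51.4% in seed destruction and 7.95% to 19.5% in the controls.

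miR-70-5p was present with the gld-1 probes and nearly absent from the background. It had 4612 and 4146 reads in gld-1 and 1987 and 3025 in seed destruction, against 0, 0 and 1 read in the controls. The normalised counts of gld-1 and seed destruction did not overlap, but the difference of -1.22 (interval -2.91 to 0.46) did not pass the test (edgeR adjusted p-value 0.861). With the prefix as a factor it was called lower (-1.59, adjusted p-value 0.0443), in 1 of 17 alternatives, and with library totals the sign turned (0.36, adjusted p-value 0.776). The opposite arm, miR-70-3p, had 1055 and 1297 reads in gld-1 and 1377 and 1269 in seed destruction but 4073, 6957 and 3075 in the controls, which puts the arms of this precursor in opposite order in pulldown and background. The log2 ratio of the 5p to the 3p arm was 2.13 and 1.68 in gld-1 and 0.53 and 1.25 in seed destruction.

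miR-71-5p, a miRNA known for its role in worm lifespan, and miR-72-5p were also among the abundant members. miR-71-5p had 8034 and 14518 reads in gld-1 and 18911 and 7751 in seed destruction, with overlapping groups and a log2 fold change of -0.16 (interval -1.36 to 1.04). The excess over the control was 2.79 in gld-1 and 2.63 in seed destruction. Its ratio to let-7-5p shifted by -0.10 between the strains. miR-72-5p had 8988 and 8897 reads in gld-1 and 7072 and 5378 in seed destruction (log2 fold change -0.95, interval -2.13 to 0.24, edgeR adjusted p-value 0.742). Over the control the values were 2.84 in gld-1 and 1.90 in seed destruction. The calls of miR-71-5p, miR-72-5p and miR-63-3p in seed destruction were lost without seed destruction replicate 1, where the values were 1.89, 1.72 and 1.74.

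Several rare miRNAs were recovered with both transcripts. miR-4932 had 16 and 16 reads in gld-1, 31 and 21 in seed destruction and 0 in all 3 controls. miR-245-3p had 10 and 11 reads in gld-1, 19 and 18 in seed destruction and at most 1 in a control. miR-246-3p had 253 and 248 reads in gld-1, 433 and 219 in seed destruction and 33 to 36 in the controls. Their log2 fold changes between the strains were 0.28, 0.40 and -0.05, none past the test. miR-233-3p, with 81 and 140 reads in gld-1 and 97 and 82 in seed destruction, differed by -0.70, and miR-230-5p, with 7 and 10 reads in gld-1 and 10 and 7 in seed destruction, by -0.40. In the controls miR-233-3p had 1 to 17 reads and miR-230-5p at most 1. The calls over the control in gld-1 were fragile for the rarest of these, and held for miR-230-5p and miR-245-3p in 7 of 17 alternatives each. In seed destruction miR-230-5p was not called over the control (3.47, edgeR adjusted p-value 0.0823). miR-4932, miR-245-3p, miR-246-3p and miR-233-3p were called higher there.

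After miR-84-5p and miR-77-5p, the lowest log2 fold changes among the 17 belonged to miR-248 and to the pair of miR-8187-3p with miR-8188-5p. miR-248 had 66 and 97 reads in gld-1, 25 and 24 in seed destruction and 0, 4 and 0 in the controls. Both normalised values of seed destruction lay below both of gld-1, but the difference of -2.13 (SE 0.95, edgeR unadjusted p-value 0.0332) did not pass after adjustment (adjusted p-value 0.620). As a share of reads the gap of miR-248 was narrower, 0.0301% ± 0.00896 in gld-1 and 0.0218% ± 0.00218 in seed destruction (SD, n = 2 each). The last pair had identical counts in the gld-1, seed destruction and control libraries and cannot be told apart there. These were 10 and 13 reads in gld-1 and 6 and 2 in seed destruction (log2 fold change -1.90, edgeR adjusted p-value 0.742).

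**Figure D4:**
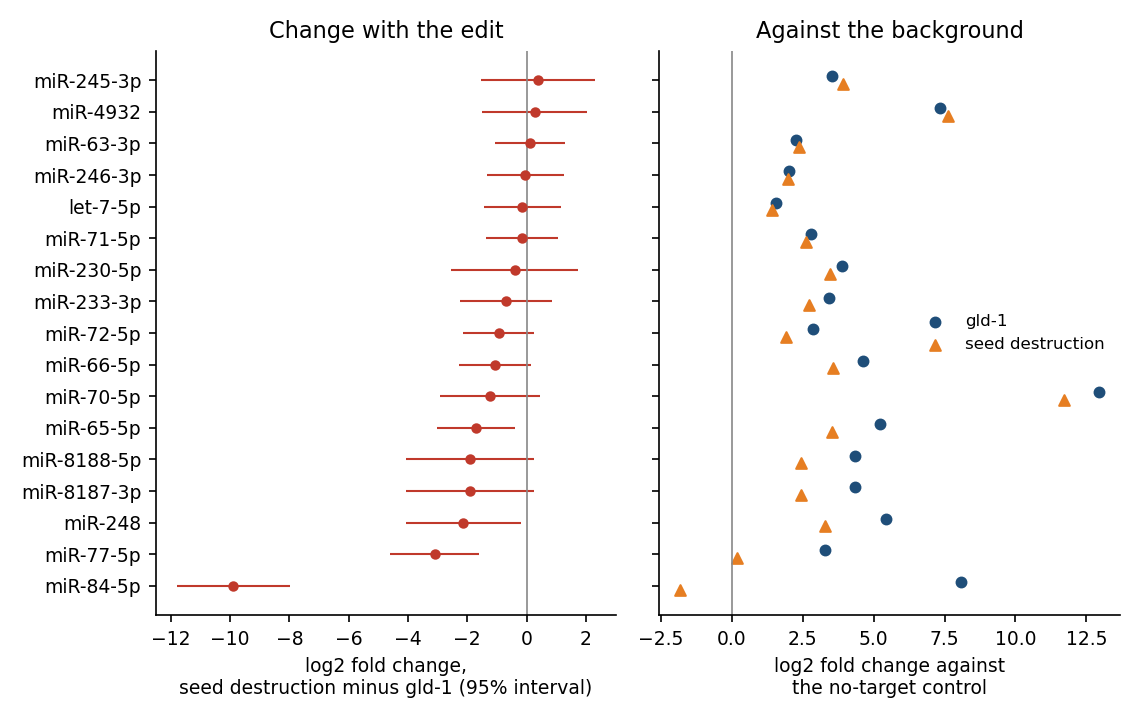
The 17 miRNAs called higher in gld-1 than in the control. Left, log2 fold change of seed destruction minus gld-1 with its 95% interval; right, log2 fold change of gld-1 (circles) and of seed destruction (triangles) against the no-target control (n = 2, 2 and 3 libraries). Of the 4 miRNAs with intervals below 0, miR-84-5p and miR-77-5p were called and miR-65-5p and miR-248 were not after adjustment. In seed destruction the called miRNAs lie at -1.82 and 0.20 against the control. Points of miRNAs with 0 or 1 control reads, such as miR-4932 and miR-70-5p, depend on the prior count of the fit.

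No miRNA was called higher on the edited transcript. miR-250-5p had the lowest p-value among those with a higher value, with 82 and 195 reads in gld-1 (0.0453% and 0.0478%) and 724 and 449 in seed destruction (0.588% and 0.437%). The controls held 49, 52 and 14 reads, or 0.0663%, 0.122% and 0.112%, so the seed destruction shares were above all 3 controls and gld-1 was below them. The log2 fold change was 1.70 (SE 0.63, interval 0.40 to 3.00, edgeR unadjusted p-value 0.0125, adjusted p-value 0.366). It was called higher with library totals (3.46, adjusted p-value 0.0125) and with the prefix as a factor (2.54, adjusted p-value 0.00217). The pair with the same prefix differed by 2.58.

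Relative to let-7-5p, miR-250-5p moved from log2 ratios of -5.96 and -5.69 in gld-1 to -4.04 and -3.81 in seed destruction, a shift of 1.90 with no overlap. Over the control its value was 3.102 in seed destruction, a call kept in all 18 alternatives, and 1.40 in gld-1 (edgeR adjusted p-value 0.0825), where the sign turned with library totals (-1.10). The mir-61 precursor lies 44 bases from mir-250 on chromosome V, and miR-61-3p, looked at after its values were seen, differed by -0.23 between the strains. miR-797-5p had 0 reads in both gld-1 libraries, 4 and 7 in seed destruction and 0, 2 and 0 in the controls, close to the floor of 3 reads.

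Of the other families, 0 tested members were called between the strains. With 1.79% of all tested miRNAs called, this is near the overall share and says little about these families. For the miR-35 family, embryonic and germline miRNAs, 6 of 8 members were tested and their log2 fold changes ran from -0.86 to -0.18, with a median of -0.44 and 0 called by edgeR. Its summed share was 0.879% and 0.528% in gld-1, 1.46% and 1.64% in seed destruction and 2.29% to 10.1% in the controls. The 6 members of the miR-51 family had a median of 0.08 (-0.18 to 0.70), and the 4 tested members of the miR-58 family a median of -0.14 (-0.65 to 0.20). miR-80-3p, the most abundant miR-58 family member, had 3936 and 3024 reads in gld-1 and 3764 and 6971 in seed destruction. The 2 members of the lin-4 family had a median of 0.43. These medians lie within the quartiles of all tested miRNAs except for lin-4.

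Of 5 markers of somatic tissues, only the glial one was well above the floor of 3 reads. miR-1-3p of muscle had 5 and 3 reads in gld-1 and 1 and 0 in seed destruction, lsy-6-3p of neurons had 0 in all 4, miR-62 of the intestine had at most 1 and the neuronal miR-124-3p had 2 to 3. miR-228-5p of glia, which made up most of the sum, had 75 and 66 reads in gld-1 and 115 and 106 in seed destruction. The summed reads of these 5 markers were 82 and 73 in gld-1 and 119 and 110 in seed destruction. The 2 tested markers, miR-124-3p and miR-228-5p, were not called, where 1.79% of all tested miRNAs were.

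**Figure D5:**
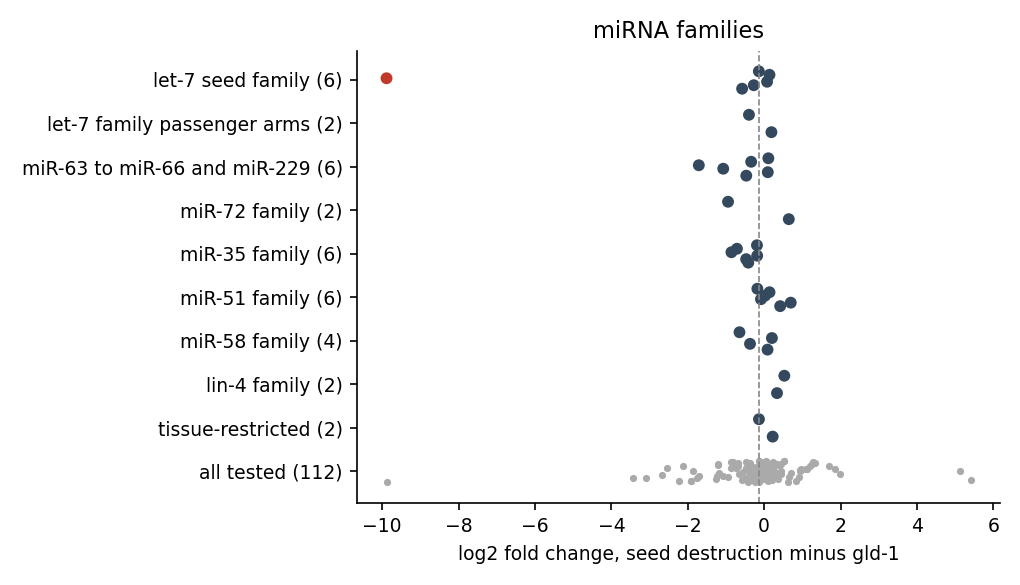
Log2 fold change of seed destruction minus gld-1 (horizontal axis) of each tested member of the families, with the number tested in parentheses and all 112 tested miRNAs in the last row; vertical jitter only separates the points. The dashed line is the median of all tested miRNAs, -0.15. miR-84-5p, in red at -9.89, stands apart from its family and from all others.

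Under the main scaling, the data bound how far the other miRNAs could have moved. The intervals leave out the choice of scaling. The median log2 fold change moved up by 1.67 with library totals and by 0.94 with miR-84-5p left out of the totals. The standard error of the log2 fold change ranged from 0.56 to 2.58 with a median of 0.86. The 95% interval lay within a 4-fold change in either direction for 36 of the 112 miRNAs, within 8-fold for 72 and within 16-fold for 94. It lay within 2-fold for 0 of them, with edgeR and 2 libraries in each group, so a change by less than 2-fold was not detectable for any. In size, 83 log2 fold changes were under 1 and 9 were 2 or more. The normalised values of the groups failed to overlap for 15 miRNAs with seed destruction higher (13.4%) and 22 with it lower (19.6%).

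By correlation, replicates of a group resembled each other about as much as libraries of different strains did, once miR-84-5p was left aside. Over the 68 miRNAs with at least 10 reads in each library, Pearson's r of log2 reads was 0.953 between the gld-1 libraries and 0.939 between the seed destruction libraries. Between strains it was 0.837 to 0.879, and without miR-84-5p it was 0.906 to 0.949. These correlations are across miRNAs, which are not independent replicates, and describe the libraries without a test. The median size of the centred log2 ratio was 0.567 within gld-1, 0.746 within seed destruction and 0.442 to 0.699 between strains.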

How the data were processed

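Small RNA of the elutions was tailed with poly(A) and sequenced (SMARTer smRNA-Seq Kit). The authors trimmed adaptors and tails with cutadapt 1.14, removed Escherichia coli reads with Bowtie2 2.3.3.1 and counted miRNAs with miRDeep2 and miRBase. The deposited values are raw read counts, listed by mature miRNA and precursor. A miRNA with several precursor rows (15 of 434) was counted by its largest row. The filter was 10 or more reads in 2 or more libraries. Tests used edgeR 4.0.16 (R 4.3.3): TMM factors (1.27 and 0.652 in gld-1, 2.74 and 3.16 in seed destruction), 1 quasi-likelihood fit of group means over all 16 libraries, robust estimation and Benjamini-Hochberg adjustment at 0.05. The study describes 2 independent pulldowns per target. The p-values rest on the spread between libraries of a group, estimated over all 16 libraries and shared between miRNAs. Residual degrees of freedom were thus up to 8, and the total with sharing had a median of 25.8. DESeq2 1.42.0 and other scalings, filters and left-out libraries were alternatives. The fit was tested on simulated data. The members and lists were chosen with earlier results of these data known. Named were let-7 seed miRNAs, both mir-84 arms, the 10 most abundant miRNAs, those with an unadjusted p-value under 0.05 between the strains and those called higher in gld-1 than in the control. Positions came from Ensembl and, for let-7, RefSeq (WBcel235).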

Additional observations from a re-analysis of the deposited data

Results flagged for a closer look

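let-7-5p differed between the strains edited at the same site: in the seed destruction strain it was lower than in the changed specificity strain (log2 fold change -7.31, SE 0.83, adjusted p-value 3.10e-07 in edgeR), and both libraries of the first (9.67% and 6.16% of reads) lay below both of the second (95.1% and 89.0%). It was singled out because the effects of these edits differed by a test of the difference itself. The strains differ in which bases of the site were changed.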

How the results depend on the processing

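The first counts cover only the 25 named miRNAs that were tested, in seed destruction against gld-1. Under the alternatives, 411 of their values kept their direction and side of the threshold, or were not called in either case. Another 7 lost a call, 3 gained one and 0 called values changed sign. Calls gained by miRNAs that were not named are left out of these counts. Over all tested miRNAs, the count of calls, 2, became 1 with RLE size factors, with library totals without miR-84-5p and with summed precursor rows. It became 10 (2 higher, 8 lower) with the name prefix as a factor. Leaving out 1 library gave counts from 1 to 2, and miR-84-5p ranged from -10.36 to -9.18 in these fits. Against the control, the count for seed destruction (20) became 12 with library totals and 12 without miR-84-5p in the totals, 34 with the prefix as a factor, and 7 to 24 with 1 library left out, the lowest without seed destruction replicate 1. The count for gld-1 (25) became 56 with library totals, 33 without miR-84-5p in the totals, 16 with only the compared groups in the fit, and 16 to 24 with 1 library left out. Among values of named miRNAs called in either fit, some signs turned. In seed destruction against the control this was miR-795-5p with the prefix as a factor (2.67). In gld-1 against the control with library totals these were let-7-5p (-0.92), miR-246-3p (-0.34), miR-63-3p (-0.048) and miR-64-5p (-2.32). Without miR-84-5p in the totals it was let-7-5p (-0.19). Values called in neither fit turned as well: counting these, 16 named miRNAs turned in at least 1 alternative in seed destruction against gld-1, 6 in seed destruction against the control and 9 in gld-1 against the control, the last including miR-250-5p (-1.10), miR-48-5p (-1.56) and miR-795-5p (-1.85) with library totals. With library totals as the scaling, a miRNA that takes much of a library lowers the shares of the others. For seed destruction against gld-1, the median moved up by 1.67 with library totals and by 0.94 without miR-84-5p in the totals. The cause of the changes under any alternative was not tested.

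The groups share replicate numbers, but nothing shows that equal numbers pair the libraries. The same-number correlation of deviations between gld-1 and seed destruction was -0.385. With the replicate block the count of calls stayed at 2 and miR-84-5p changed by -9.85. With crossed numbers, an alternative chosen after seeing the data, the count was also 2. With the block the counts against the control were 21 for seed destruction and 20 for gld-1, and the let-7-5p to miR-84-5p ratio kept its difference of 9.62 with an exact permutation p of 0.5, the smallest the block allows. Calls against the control for rare miRNAs rested on few control reads: the control libraries held 73899, 42622 and 12474 reads, and for miR-248 leaving out control replicate 2 moved the value in gld-1 from 5.43 to 9.69 and that in seed destruction from 3.30 to 7.56. With control replicate 3 left out, miR-230-5p in gld-1 moved from 3.88 to 6.48 and miR-8187-3p from 4.33 to 6.92. Without gld-1 replicate 2, miR-77-5p in gld-1 against the control moved from 3.29 to 2.11.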

Other observations

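The miR-44-3p and miR-45-3p rows held the same counts in all 4 libraries, 179 and 121 in gld-1 and 214 and 566 in seed destruction, so these miRNAs cannot be told apart. With the name prefix as a factor, miR-253-3p was called higher in seed destruction (2.19), with 54 and 70 reads in gld-1 and 290 and 95 in seed destruction, although no call was made without that factor. miR-8191-5p had 428 and 37 reads in gld-1 and 19 and 118 in seed destruction, an example of a miRNA whose replicates differed more than its groups.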
